A study of Mus musculus with 4 samples.

Results

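Mitochondrial ribosomal proteins were followed in cultured mouse B cells that carry 1 or no working copy of Aff3. The members were the genes whose symbol is Mrpl or Mrps and a number, with pseudogenes left out, reached through the RefSeq transcript that each array probe was designed on. They came to 78 genes on 99 probes, 49 with an Mrpl symbol (large subunit) and 29 with an Mrps symbol (small subunit), beside 20651 genes or unnamed probes tested in the series as a whole. For 77 of the 78, 48 Mrpl and 29 Mrps genes, a probe passed the filter on weak signal, which asked that both arrays of 1 genotype or the other be well above background. The exception was Mrpl21, whose single probe was not well above background on any array, with processed intensities of 1.56 and 1.33 in Aff3+/- and 1.36 and 1.54 in Aff3-/-, so it has no level here.

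The study compared 2 RNA samples from Aff3+/- mice with 2 from Aff3-/- mice. Aff3 codes for a member of the AF4/FMR2 family of nuclear proteins, which takes part in transcription elongation. In both genotypes, spleen B cells were purified as the fraction without CD43, a surface protein that resting B-2 cells lack, and all 4 samples had been stimulated in culture for 3 days with 10 ug/mL LPS, a bacterial ligand of TLR4, and 10 ng/mL IL-4, a T cell cytokine. Labelled RNA of each sample, made from 150 ng, was hybridised to 1 Agilent 1-colour whole mouse genome array. The heterozygotes are the controls, so no sample with both copies of Aff3 enters, and every sample is of activated cells. The labels do not say whether replicates 1 and 2 came from separate mice, so errors and p-values speak only of how far these samples differ, which may be technical.

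Mitochondria make the few proteins that their own genome encodes on a ribosome of their own, whose RNAs come from mitochondrial DNA and whose proteins are all encoded in the nucleus, made in the cytosol and imported. Some of these proteins descend from bacterial ribosomal proteins and others were gained by mitochondria. The products are core subunits of the respiratory chain and the ATP synthase, and B cells enlarge this machinery when they are activated and divide.

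Promoters of 69 of the 78 genes were found in the RefSeq promoter table (assembly GRCm38.p6), as 75 windows from 250 bases before to 50 bases after a transcription start. The genes Mrpl4, Mrpl13, Mrpl15, Mrpl19, Mrpl38, Mrpl54, Mrps28, Mrps34 and Mrps35 had no entry. The windows below are shown because they carry the member pairs and motifs discussed with the values: Mrpl46 and Mrps11, 1 gene of each subunit, start in opposite directions only 42 bases apart; Mrps18b is a small subunit gene that differed widely between arrays; and Mrpl32, a large subunit gene, holds the most NRF1 matches of the 4. Each is written from 5′ to 3′ on the strand of its gene, and capitals mark matches, on either strand, to a core motif of ETS factors (CCGGAAG), NRF1 (GCGCATGCG) or YY1 (AAGATGG), factors known to bind promoters of many nuclear genes for mitochondrial proteins.

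Mrpl46 (GRCm38.p6, chr7:78783040-78783339, minus strand): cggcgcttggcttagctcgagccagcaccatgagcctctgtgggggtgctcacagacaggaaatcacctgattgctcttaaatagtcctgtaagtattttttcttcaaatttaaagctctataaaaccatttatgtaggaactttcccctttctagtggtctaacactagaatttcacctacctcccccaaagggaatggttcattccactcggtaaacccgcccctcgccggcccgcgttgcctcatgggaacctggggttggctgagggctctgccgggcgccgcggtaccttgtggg
Mrps11 (GRCm38.p6, chr7:78782881-78783180, plus strand): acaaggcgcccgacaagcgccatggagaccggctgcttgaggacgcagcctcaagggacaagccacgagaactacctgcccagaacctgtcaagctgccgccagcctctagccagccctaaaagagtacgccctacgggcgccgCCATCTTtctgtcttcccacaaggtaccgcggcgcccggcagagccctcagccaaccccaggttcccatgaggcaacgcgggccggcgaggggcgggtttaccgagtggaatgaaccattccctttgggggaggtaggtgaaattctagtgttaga
Mrpl32 (GRCm38.p6, chr13:14612988-14613287, minus strand): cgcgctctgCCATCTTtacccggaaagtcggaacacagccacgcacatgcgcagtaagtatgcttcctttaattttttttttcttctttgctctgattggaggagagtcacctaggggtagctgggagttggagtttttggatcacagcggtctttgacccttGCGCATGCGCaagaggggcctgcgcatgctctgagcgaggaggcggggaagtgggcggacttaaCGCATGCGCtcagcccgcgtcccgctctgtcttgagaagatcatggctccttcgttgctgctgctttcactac
Mrps18b (GRCm38.p6, chr17:35916391-35916690, minus strand): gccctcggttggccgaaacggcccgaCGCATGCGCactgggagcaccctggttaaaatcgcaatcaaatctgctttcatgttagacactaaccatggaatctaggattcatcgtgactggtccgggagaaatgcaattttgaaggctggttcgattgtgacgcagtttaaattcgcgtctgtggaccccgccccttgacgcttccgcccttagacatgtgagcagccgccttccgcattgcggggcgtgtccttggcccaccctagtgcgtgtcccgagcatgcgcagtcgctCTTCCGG

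In the Mrpl32 window the first NRF1 run holds the motif on both strands, overlapping in a single stretch of capitals, and another lies nearer to the start, with a YY1 core near the far end. The Mrps18b window holds an NRF1 core near its far end and an ETS core just inside the transcribed part. The Mrps11 window holds a YY1 core, and the Mrpl46 window, which overlaps it on the other strand, none of the 3. An ETS core stood in 26 of the 75 member windows (34.7%), against 15.9% of 13835 windows of other genes tested and 8.86% of all 32851 windows of that length. The NRF1 core stood in 7 member windows (9.33%), against 3.19% of windows of other tested genes and 1.75% of all. The YY1 core stood in 13 (17.3%), against 6.86% and 6.34%. A GC box (GGGCGGG) was as frequent in member windows (42.7%) as in those of other tested genes (42.5%; all windows 25.6%), an E-box (CACGTG) stood in 9.33% (9.56% and 7.15%), and TATAAA in 6.67% (8.59% and 13.6%). By subunit, the ETS core stood in 15 Mrpl windows (31.2%) and 11 Mrps windows (40.7%), and the NRF1 core in 6 (12.5%) and 1 (3.7%). A match is only a run of letters in these windows, and whether any factor binds there was not measured.

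An array had 24970 to 25895 of its 39429 probes well above background and none saturated. Of the B cell markers 9 of 9 were well above background on every array. So were 7 of 9 T cell markers, 2 of 5 NK cell markers and 3 of the 7 myeloid markers with a probe. The same held for 4 markers of red cell precursors, 1 of 4 of megakaryocytes, and 4 of 6 of stromal and endothelial cells. Not well above background on any array were Cd3g and Trat1 of T cells, and Ncr1, Klrb1c and Klrk1 of NK cells. Nor were Lyz2, S100a8, S100a9 and Fcgr1 of myeloid cells and Alas2 of red cell precursors. In bulk RNA such as this, fewer cells of a type and less RNA per cell cannot be told apart. No level of Aff3 itself is reported here, so the genotype labels were not checked here by its transcript.

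Between the genotypes, no mitochondrial ribosomal protein gene passed the test. In limma's moderated fit over all features, 0 of 77 members had an adjusted p under 0.05 (0% of all features passed), every member's adjusted p was 1, and 0 of 77 had an unadjusted p under 0.05 (2.04% of all features did). Values are log2 signal relative to the 75th percentile of the same array, called log2 level below, and they compare arrays for 1 probe, not 1 gene with another. The log2 difference, Aff3-/- minus Aff3+/-, ran from -0.14 for Mrpl20 to 0.17 for Mrps6, and 69 of 77 lay within 0.1 of 0. The standard error, at 2 arrays per genotype, ran from 0.11 to 0.23 with a median of 0.13, and the 95% intervals of all 77 members lay between -0.61 and 0.67. The lowest bound is that of Mrpl41 and the highest that of Mrpl38, and most members' intervals are narrower than those of these genes.

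**Figure D1:**
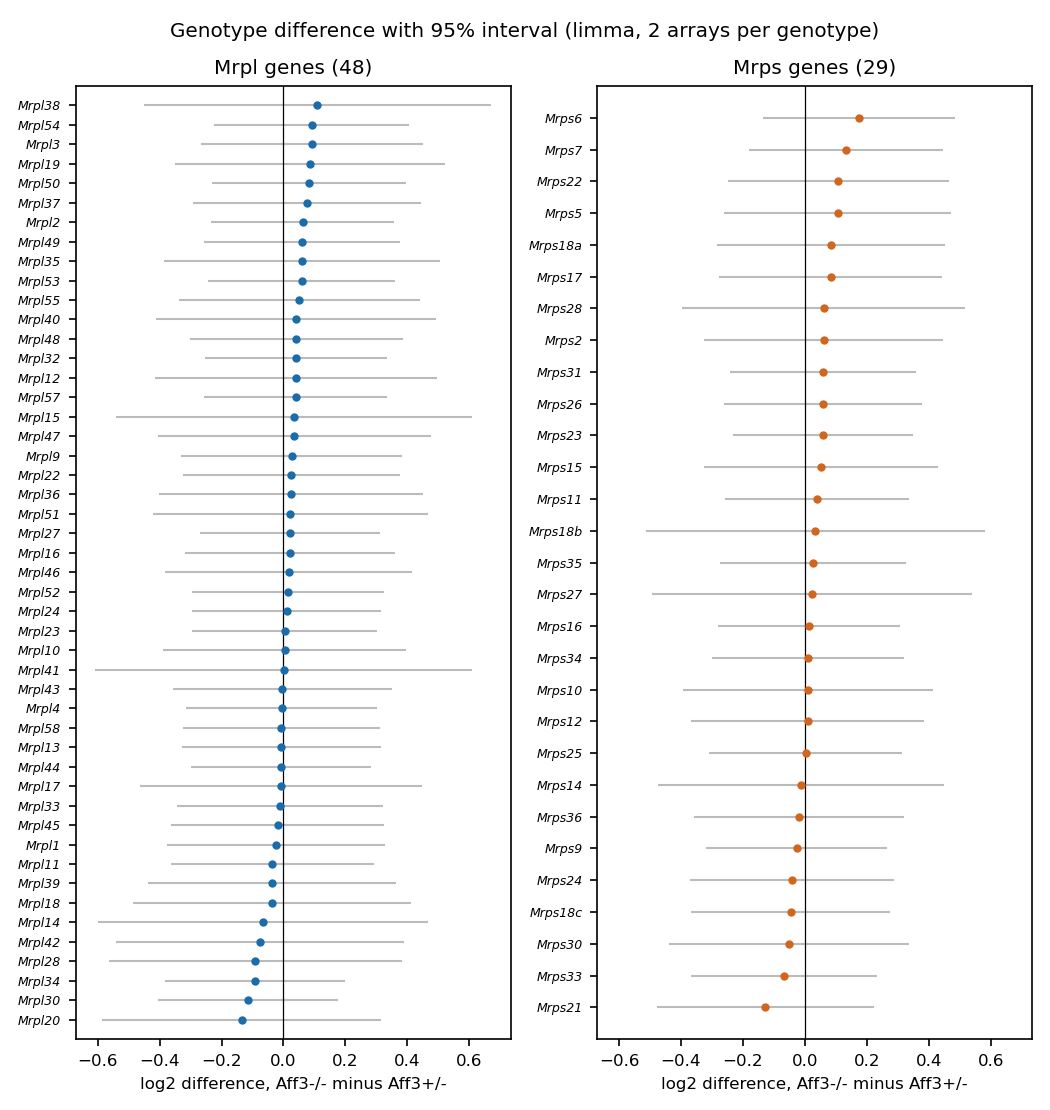
Log2 difference, Aff3-/- minus Aff3+/-, of each tested Mrpl gene (left, 48 genes) and Mrps gene (right, 29 genes), in order of size. Points are limma estimates from 2 arrays per genotype and grey lines their 95% intervals, each of which includes 0; the points run from -0.14 (Mrpl20) to 0.17 (Mrps6).

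The members' median difference was 0.022, against -0.011 over all features, and 51 of 77 were higher and 26 lower in the Aff3-/- mean (45.7% of all features were higher). The median was 0.019 for Mrpl genes and 0.027 for Mrps genes, so large minus small was -0.0086. The pooled SD of this gap between arrays was 0.0054, and the gap was not tested. Most of the members' small lean towards Aff3-/- came from the second pair of arrays. With replicate 1 of each genotype the members' median difference was -0.015 and 34 members were higher in Aff3-/-. With replicate 2 it was 0.047 and 59 were higher. Only 36 of 77 had the same sign in both. Both medians turned negative without Aff3+/- replicate 1 (-0.030 for Mrpl and -0.029 for Mrps genes) or Aff3-/- replicate 2 (-0.069 and -0.042).

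Both Aff3-/- arrays lay above both Aff3+/- arrays in 5 members (6.49%), against 8.45% of all features, and below them in 4 (5.19%), against 11.2%. These shares are near or under the background. With arrays centred on the median of the probes above background everywhere, the counts were 10 and 2 (10.4% and 9.38% of all features). The authors' deposited values cover 53 members, among them 1 of the 5 and all 4 of the lower ones, and gave 0 and 2 (0% and 20.5% of 12177 features). None of the 25372 probes in that table has both Aff3-/- values above both Aff3+/- values, against 4677 with both below, so it could not show a higher member. The higher ones were Mrps6, Mrps7, Mrpl2, Mrpl27 and Mrps23, and the lower ones Mrps21, Mrps33, Mrpl30 and Mrpl34; of these Mrpl2, Mrpl27 and Mrps23 were named after their values were seen.

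Among the small subunit genes, Mrps6, a protein of the central domain kept from bacteria, had the highest difference. Its log2 levels were 1.95 and 2.07 in Aff3+/- and 2.17 and 2.20 in Aff3-/-, so the genotypes did not overlap. The difference was 0.17 ± 0.12 (SE, 2 arrays per genotype), and its unadjusted p in limma's fit, 0.201, was the smallest of any member. Mrps7, whose bacterial relative starts assembly of the ribosome's head, had levels of 4.47 and 4.54 against 4.58 and 4.70, a difference of 0.13 ± 0.12 without overlap. Its dimmer probe gave 0.11, but with overlap, at 1.93 and 2.21 against 2.09 and 2.27. For the mitochondria-specific Mrps22, levels of 1.67 and 1.78 stood against 1.73 and 1.94, overlapping, with a difference of 0.11 ± 0.14. Mrps5, which in bacteria lines the channel where mRNA enters, had 0.098 and 0.26 against 0.19 and 0.39, also 0.11 and overlapping. Mrps23, a mitochondria-specific protein, differed by 0.058 ± 0.11, with both Aff3-/- arrays at 3.47 and the others at 3.40 and 3.42. The dimmer Mrps23 probe gave 0.0015, and the genotypes overlapped on it.

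At the low end of the small subunit, Mrps21, kept from bacteria, had 3.93 and 3.96 in Aff3+/- and 3.70 and 3.93 in Aff3-/-. Its second Aff3-/- array thus lay only just under the first Aff3+/- array, and the difference of -0.13 ± 0.13 came mostly from replicate 1. Mrps33, mitochondria-specific, was 4.06 and 4.08 against 3.95 and 4.05, a difference of -0.067. The dimmer Mrps33 probe gave -0.0089, and the genotypes overlapped on it. Mrps24 (-0.042), Mrps18c (-0.046) and Mrps30 (-0.051) had overlapping genotypes and smaller differences than their errors of 0.12 to 0.15. Mrps12, the protein of the decoding site, had 2.78 and 2.88 against 2.71 and 2.96, so that both Aff3+/- arrays lay between the Aff3-/- arrays and the difference was 0.0087 ± 0.14. Mrps2, at 0.83 and 1.02 against 0.88 and 1.1, differed by 0.060 ± 0.15, and Mrps25 by 0.0028 ± 0.12.

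Several genes carry an Mrps symbol without a plain small subunit role. The proteins of Mrps18a, Mrps18b and Mrps18c are relatives of 1 bacterial protein, and that of Mrps18a sits in the large subunit, as does that of Mrps30, while that of Mrps36 is now known as a component of the 2-oxoglutarate dehydrogenase complex. Mrps18a had levels of 2.34 and 2.41 in Aff3+/- and 2.34 and 2.59 in Aff3-/-, a difference of 0.084 ± 0.14. Mrps18b had 4.01 and 4.23 against 3.91 and 4.40, 0.034 ± 0.21, and Mrps18c had 3.03 and 3.03 against 2.91 and 3.07. The 3 relatives thus all overlapped between genotypes, and Mrps18b had the widest spread. Mrps30 had 2.89 and 2.94 against 2.72 and 3.01, and Mrps36 3.04 and 3.06 against 2.93 and 3.13, a difference of -0.018 ± 0.13, with the Aff3-/- arrays on either side of the Aff3+/- arrays in both. With Mrps18a and Mrps30 counted in the large subunit and Mrps36 in neither, the medians were 0.019 for 50 large and 0.031 for 26 small subunit genes.

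Among the large subunit genes, the highest difference was that of Mrpl38, a mitochondria-specific protein, at 0.60 and 0.98 in Aff3+/- and 0.70 and 1.1 in Aff3-/-. The genotypes overlapped and the error was larger than the difference (0.11 ± 0.21). Mrpl54, Mrpl3 and Mrpl19 followed at 0.091, 0.091 and 0.086, with errors of 0.12, 0.14 and 0.16 and overlapping arrays. Mrpl3, whose human counterpart is a disease gene of mitochondrial translation, had 3.02 and 3.17 against 3.09 and 3.28. Mrpl50 gave 0.083 ± 0.12 on its brighter probe and -0.071 on its dimmer one, the widest disagreement over genotype of any member with 2 probes. Mrpl2, which helps to build the peptidyl transferase centre in bacteria, differed by 0.062 ± 0.11. Mrpl27, whose bacterial relative reaches into that centre, differed by 0.022 ± 0.11, with levels of 3.17 and 3.17 against 3.17 and 3.20. The dimmer Mrpl27 probe gave -0.0099, and the genotypes overlapped on it.

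At the low end, Mrpl20, kept from bacteria, where it binds the large rRNA early in assembly, had 4.19 and 4.41 in Aff3+/- and 4.0 and 4.33 in Aff3-/-. The genotypes overlapped, and the difference was -0.14 ± 0.17. Mrpl30 was the most even of this group, with 3.77 and 3.75 against 3.66 and 3.62, no overlap, and a difference of -0.12 ± 0.11. Mrpl34 also did not overlap, at 2.36 and 2.32 against 2.26 and 2.25 (-0.093 ± 0.11). Mrpl28 (-0.090 ± 0.18) and Mrpl42 (-0.075 ± 0.18) overlapped. Mrpl12, the stalk protein that receives translation factors, had 3.62 and 3.80 against 3.57 and 3.93, and both Aff3+/- arrays lay between the Aff3-/- arrays, with a difference of 0.040 ± 0.17.

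By origin, the median difference was 0.0073 for 28 tested large subunit genes kept from bacteria and 0.031 for 20 mitochondria-specific ones. It was 0.034 for 17 small subunit genes kept from bacteria and 0.027 for 9 mitochondria-specific ones. None of these groups held a member past the test, and the groups were not tested against each other. For the whole subunits, the pooled SD of the median between arrays was 0.0955 for Mrpl and 0.0909 for Mrps genes.

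What set the members' levels apart was the array, more than the genotype. Members lay low on the arrays labelled replicate 1 of either genotype and high on those labelled replicate 2: the median deviation from a gene's mean was -0.052 on Aff3+/- replicate 1, -0.074 on Aff3-/- replicate 1, 0.031 on Aff3+/- replicate 2 and 0.094 on Aff3-/- replicate 2. Over all features the same medians lay between -0.018 and 0.0061. Large and small subunit genes were alike in this, at -0.050, -0.079, 0.033 and 0.094 for Mrpl genes and -0.054, -0.060, 0.029 and 0.10 for Mrps genes. The labels do not say what the number marks, and this pattern was noticed in the data, so it is given as a description with no test.

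**Figure D2:**
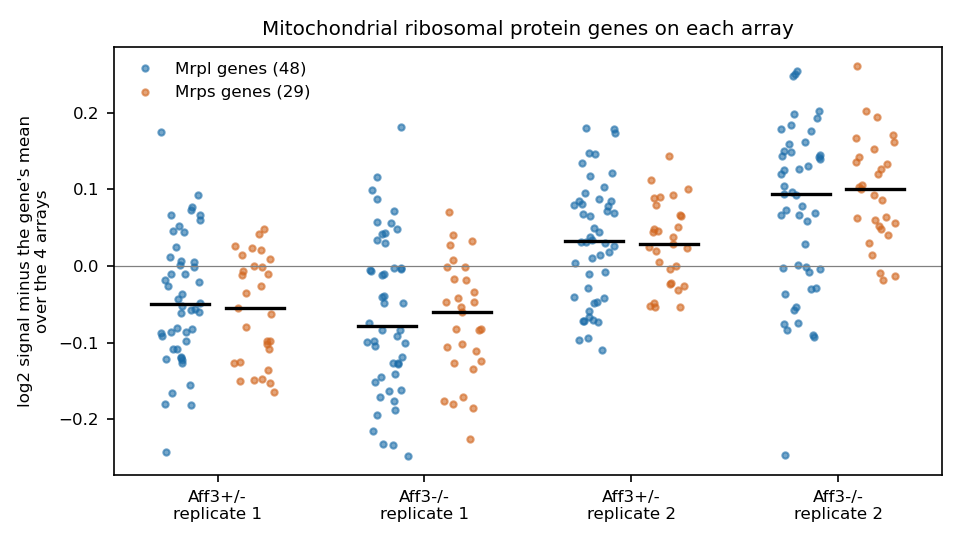
Each member's log2 signal on each of the 4 arrays minus its mean over the 4, for 48 Mrpl genes (blue) and 29 Mrps genes (orange). Points are genes, spread sideways for legibility, and black bars are medians, which are below 0 on both replicate 1 arrays and highest, at 0.094 and 0.10, on Aff3-/- replicate 2.

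Both replicate 2 arrays lay above both replicate 1 arrays in 49 of 77 members (63.6%), against 30.8% of all features, and below them in 14 (18.2%), against 33.5%. The first count took in 30 Mrpl genes (62.5%) and 19 Mrps genes (65.5%). The second took in 12 Mrpl genes (25%) and only 2 Mrps genes (6.9%), Mrps16 and Mrps35, named after their values were seen. The median difference, replicate 2 minus replicate 1, was 0.11 for Mrpl genes and 0.11 for Mrps genes, against -0.013 over all features. It was 0.080 within Aff3+/- and 0.17 within Aff3-/- (all features -0.0015 and -0.028). In 64 members (83.1%; all features 73.2%) this difference was larger than that between genotypes.

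The widest example was Mrpl41, a mitochondria-specific large subunit protein, at 2.74 and 2.67 on the replicate 1 arrays of Aff3+/- and Aff3-/- and 3.10 and 3.17 on the replicate 2 arrays. The replicates stood 0.43 apart, and the genotypes 0.00050 apart with an error of 0.23. Its dimmer probe showed the same direction at 0.11. The further genes of this paragraph were chosen after their values were seen, apart from Mrps18b. Mrpl15, kept from bacteria, had 2.66 and 2.63 against 2.99 and 3.10, 0.40 apart on the brighter and 0.45 on the dimmer probe. Mrps18b, whose promoter is shown above, stood 0.35 apart on the brighter and 0.41 on the dimmer probe. Mrps27, a small subunit protein with RNA-binding repeats, was at -0.54 and -0.55 against -0.23 and -0.17. These members were low on both replicate 1 arrays and high on both replicate 2 arrays, with little room between genotypes.

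Other members ran the opposite way. Mrpl14, kept from bacteria, had 4.51 and 4.52 on the replicate 1 arrays and 4.23 and 4.09 on the replicate 2 arrays, 0.36 lower. Mrpl43 (4.31 and 4.32 against 4.16 and 4.14), Mrpl45, which anchors the ribosome at the inner membrane (3.65 and 3.62 against 3.49 and 3.49), and Mrpl9 (2.22 and 2.29 against 2.11 and 2.09) did the same by smaller steps. Mrpl43 starts head to head with Twnk, the gene of the mitochondrial DNA helicase. Replicate 2 minus replicate 1 was 0.35 for Twnk against -0.16 for Mrpl43 on its brighter probe and only -0.034 on its dimmer probe. Mrpl14 starts head to head with Tmem63b, and here both were lower, at -0.37 and -0.36.

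The neighbours named here were picked after their values were seen. In all, 26 of the 69 members with a promoter window (37.7%) start head to head with another gene within 1000 bases, against 17.8% of 10974 other tested genes and 12.3% of all genes with a window. Of 22 whose neighbour was tested, 13 lay higher on both replicate 2 arrays, and the neighbour did so too in 7 of these. The share was 30.8% over all features. Where the member did not, the neighbours Mitd1, Psma2, Twnk, Ska3, Mrpl46 and Gga3 did, and Tmem63b, Klc4 and Eme1 did not. Mrpl46 and Mrps11 are each other's neighbour and so entered from both sides. Mrps12 and Sars2, the mitochondrial seryl-tRNA synthetase gene, start 147 bases apart and stood 0.18 and 0.19 higher on the replicate 2 arrays. Mrpl46 and Mrps11, whose windows are shown above and overlap, did not: Mrpl46 was at 1.07 and 1.03 on the replicate 1 arrays and 1.23 and 1.31 on the replicate 2 arrays, while Mrps11 was at 0.25 and 0.23 and then 0.18 and 0.27. The Mrpl32 gene, with the NRF1 matches shown, was 0.049 lower on the replicate 2 arrays. By motif, the median replicate difference was 0.059 for 25 tested members with an ETS core and 0.16 for 43 without. It was 0.21 for 7 with an NRF1 core and 0.11 for 61 without. For the YY1 core it was 0.16 (13 with) and 0.11 (55 without), and for the GC box 0.16 (29) and 0.0965 (39). The E-box gave 0.17 (5) and 0.11 (63), and TATAAA 0.14 (5) and 0.11 (63). No motif was tested.

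For 21 members a second probe was a check on both contrasts, though only of the probe, since both read the same 4 samples. Signs also agree through a lean that members share. Of 77 members, 51 had the higher mean in Aff3-/- and 58 on the replicate 2 arrays. The sign of the genotype difference agreed between probes in 15 of 21, with a median gap of 0.031, about as large as the differences themselves, whose median size over all members was 0.039. The sign of the replicate difference agreed in 19 of 21, with a median gap of 0.057 against a median size of 0.15. The largest gaps were those of Mrpl50 for genotype (0.15) and Mrpl41 for the replicates (0.31).

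**Figure D3:**
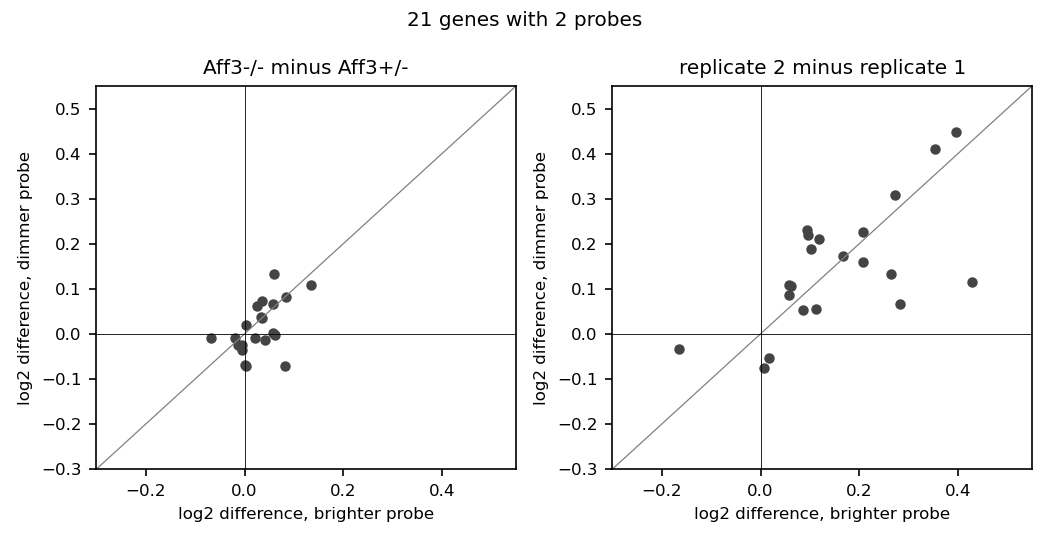
Log2 differences on the dimmer probe (vertical) against those on the brighter probe (horizontal) of the 21 members with 2 probes, for genotype (left) and for replicate 2 minus replicate 1 (right), on equal axes. Points are genes and the grey line is equality; the points on the left gather around 0, and on the right 19 of 21 have the same sign on both probes.

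The replicate step, as the replicate 2 minus replicate 1 difference is called here, differed with the probe's signal. Among the 26 members with the dimmest probes its median was 0.18, and 22 of 26 lay higher on both replicate 2 arrays, against 33.9% of 7468 other features in that range. Among the middle 25 it was 0.16, with 17 of 25 against 40.5% of 1520 others. Among the brightest 26 it was 0.060, with 10 of 26 against 45.1% of 1360. From dimmest to brightest range, the other features' median was -0.012, 0.021 and 0.045. The brightest members thus stood close to other features of like signal. Markers of B cells moved with the replicate number as well: 7 of 9 (77.8%) lay lower on both replicate 2 arrays, against 33.5% of all features. Their summed signal is given in units of the array's 75th percentile. It was 435 and 452 on the replicate 1 arrays and 414 and 391 on the replicate 2 arrays. All 5 plasma cell genes had a higher replicate 2 mean, 3 of them without overlap (30.8% of all features). Their sums were 40.3 and 46.6 and then 45.8 and 50.4. These 5 genes also all had a higher Aff3-/- mean, with a median difference of 0.12, and 1 did not overlap between genotypes (8.45% of all features). The sums for T cells were 10.2 and 9.64 and then 9.52 and 8.90, for NK cells 0.888 and 0.883 and then 0.777 and 0.709, for myeloid cells 8.65 and 7.88 and then 7.45 and 7.18, for the 4 red cell precursor genes well above background on every array 10.6 and 6.60 and then 7.84 and 5.11, for megakaryocytes 0.0193 and 0.0274 and then 0.0253 and 0.0219, and for stromal and endothelial cells 0.461 and 0.400 and then 0.380 and 0.335. With either replicate number the red cell precursor sum was lower in Aff3-/-. By gene, 2 of these 4 had the higher and 2 the lower Aff3-/- mean. Of the 9 B cell markers 7 had the lower Aff3-/- mean, 0 of them without overlap. The marker sums thus did not follow the replicate number alone. The part of cell makeup in the members' step was not tested.

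The rest of the mitochondrial translation system was set beside the members from fixed lists. No gene of any list passed the adjusted or the unadjusted threshold for genotype. Of 5 ribosomal proteins under other symbols, 3 had both replicate 2 arrays above both replicate 1 arrays. They were Dap3 (4.37 and 4.27, then 4.46 and 4.49) and, named after their values were seen, Ptcd3 and Gadd45gip1. Chchd1 had the smallest p of the 5 for genotype, at 0.090 ± 0.11, and Dap3 followed at -0.035 ± 0.13. The list of translation factors includes those that start, extend and end protein chains, beside others such as Slirp and Lrpprc. Of its 15 tested genes, 10 (66.7%) lay higher on both replicate 2 arrays, and 3 lower. Their genotype median was -0.0041, with Slirp, an RNA-stabilising partner of Lrpprc, at -0.063 ± 0.11 and Guf1, a ribosome GTPase, at 0.057 ± 0.12.

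Of 16 tested mitochondrial aminoacyl-tRNA synthetases, which charge tRNAs with amino acids, 11 (68.8%) lay higher on both replicate 2 arrays and 1 lower, much like the members. Hars2 (0.085 ± 0.11) and Ears2 (-0.083 ± 0.11) had the smallest p for genotype. Assembly and rRNA-modifying factors had another profile: 8 of 28 (28.6%) lay higher on both replicate 2 arrays and 10 lower, close to the background. For genotype 19 of these 28 were higher in the Aff3-/- mean (67.9%, against 45.7% of all features), with a median of 0.042, and 6 lay above without overlap and 1 below (8.45% and 11.2% of all features). Fastkd2, whose signal was weak, was at -8.10 and -6.77 in Aff3+/- and -6.96 and -6.49 in Aff3-/- (0.70 ± 0.48, overlapping), and Mtg1, a GTPase of large subunit assembly, at 1.49 and 1.49 against 1.59 and 1.64 (0.12 ± 0.11). Differences between lists were not tested.

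Of 7 genes of mitochondrial transcription, 2 (28.6%) lay higher on both replicate 2 arrays and 4 (57.1%) lower, against 30.8% and 33.5% of all features. Their median replicate step was -0.13, opposite in sign to that of the members. Tfam, which packages mitochondrial DNA and starts its transcription, differed between genotypes by 0.094 ± 0.14 and Tefm, an elongation factor of that transcription, by 0.081 ± 0.12. Of 10 nuclear regulators 3 (30%) lay higher and 4 (40%) lower on both replicate 2 arrays, near those shares of all features. Ppargc1a, a coactivator of mitochondrial biogenesis, differed by -0.24 ± 0.31, and Yy1 by 0.064 ± 0.13. Myc, Nrf1 and Gabpa were named after their values were seen. Myc, a growth regulator, had 1.67 and 1.71 on the replicate 1 arrays and 2.17 and 2.29 on the replicate 2 arrays, 0.54 higher. Nrf1 and Gabpa, whose proteins bind the NRF1 and ETS motifs, had 0.67 and 0.74, then 0.65 and 0.69, and 0.39 and 0.51, then 0.45 and 0.44.

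**Figure D4:**
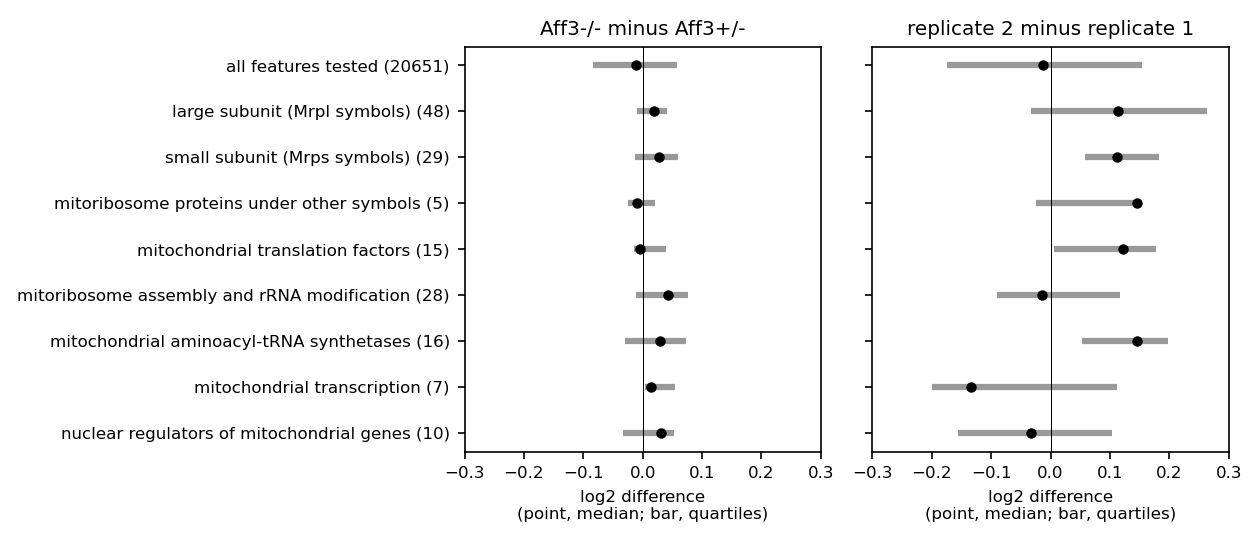
Median log2 difference (point) and quartiles (bar) of each gene list, for Aff3-/- minus Aff3+/- (left) and replicate 2 minus replicate 1 (right), with the number of tested genes in brackets. On the left the medians lie between -0.011 and 0.042. On the right both subunits lie at 0.11, with translation factors at 0.12 and aminoacyl-tRNA synthetases at 0.15. Assembly factors lie at -0.015, nuclear regulators at -0.033 and genes of mitochondrial transcription at -0.13.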

How the data were processed

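The 4 scanner files hold processed and median signal intensity per spot on a linear scale, background-subtracted with Agilent Feature Extraction 10.7.1.1, per the submitters' processing notes and the file headers, with no scaling between arrays. A second table holds log2 values the authors deposited for 25372 probes, each row centred, with column medians of 0.13, -0.04, -0.03 and 0.02 (Aff3+/- 1, Aff3-/- 1, Aff3+/- 2, Aff3-/- 2). It runs the same way as the scanner signals, its scaling between arrays is unknown, and it served as an alternative.

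Control spots (1377 of 44397) and outlier spots were dropped. Log2 processed signal minus the array's 75th percentile was averaged per probe, and the filter on weak signal needed both arrays of a genotype, either one, to be well above background. A gene was its brightest probe. Of 39429 probes 26581 were named by RefSeq accession, 6 by synonym and 12842 not at all (GRCm38.p6 gene table; the array design cites another build). Limma 3.58.1 in R 4.3.3 gave two-sided p-values, Benjamini-Hochberg adjusted over 20651 features, without a block; 2 residual and 2.59 prior degrees of freedom make it a test of 4 arrays only. The fit was tested on simulated data, and ± is a standard error.

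Genes were named by rule: per subunit the 5 highest and 5 lowest differences, Mrps18a to Mrps18c, Mrps30, Mrps36, Mrpl12 and Mrps12, any unadjusted p under 0.05, the 3 widest probe gaps and array ranges, untested members, and the 2 smallest p per other list. The members and lists were chosen with earlier results of these data known. All 4 arrays shared 1 slide and 1 scan, so neither was a block, and no 2 arrays were identical. Alternatives covered background correction, scaling, deposited values, filter, probe rule, variance model, replicate block, subunits by structure and each array left out. A result on 1 marker gene is not reported here.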

Additional observations from a re-analysis of the deposited data

How the results depend on the processing

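No member passed the adjusted threshold of limma's test under any of the 13 alternatives run. With the replicate number as a replicate block the count was 0 of 77 (smallest adjusted p 0.782), as it was for all features. Same-numbered arrays deviated together, with r = 0.56 over 20651 features and 0.86 over the 77 members, but 2 pairs do not establish a pairing.

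Members higher in Aff3-/- without overlap (5, 8.45% of all features) became 10 with median centring (10.4%) and 2 with probes averaged per gene (8.22%). They became 0 with the deposited values (0%), where 1 of the 5 has a value and none of the 25372 probes lies higher without overlap. Leaving out an array by itself makes separation easier. Without replicate 1 or 2 of Aff3+/- the count was 17 (20.3%) or 23 (26.5%). Without replicate 1 or 2 of Aff3-/- it was 51 (32.9%) or 16 (30.2%). Members lower (4, 11.2%) became 2 with normexp (9.74%), with median centring (9.38%) and with the deposited values (20.5%). Without replicate 1 or 2 of Aff3+/- this count was 12 (25.2%) or 7 (31.4%). Without replicate 1 or 2 of Aff3-/- it was 10 (40.3%) or 36 (32.6%). The large minus small median (-0.0086) became -0.014 with the mean of probes and lay between -0.028 and -0.0017 without single arrays. The genotype medians themselves turned sign without single arrays, -0.069 to 0.098 for Mrpl genes and -0.042 to 0.11 for Mrps genes, being negative without Aff3+/- replicate 1 or Aff3-/- replicate 2. The Mrpl median was -0.0048 with the deposited values (all features -0.059).

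The replicate results were added after seeing the data. The Mrpl step (0.11) was 0.15 with median centring, 0.19 with the deposited values, 0.15 with the mean of probes and 0.096 to 0.15 without single arrays. The Mrps step was 0.15 with median centring and 0.077 to 0.15 without single arrays. Median centring moved all features to 0.025. Members lower on both replicate 2 arrays (14) became 8 with median centring and 6 with the deposited values, which hold 53 members (33.5%, 28.4% and 30.1% of all features).

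Of 42 genes with a printed genotype difference, 18 kept its sign in every alternative that gave them a value. Of these 18, 7 had a value in all 13, since the deposited values cover 25 of the 42. The sign turned for Mrpl50 with the deposited values (-0.071), Mrps36 with normexp (0.011), Mrpl27 with normexp (-0.0041), Mrps25 with normexp (-0.0067), quantile scaling (-0.0077) and the mean of probes (-0.034), and Mrpl41 with the same 3 (-0.015, -0.015 and -0.034) and the deposited values (-0.00020). Without single arrays the sign turned for 22 genes, whose ranges were Mrpl38 -0.091 to 0.31, Mrpl3 -0.0035 to 0.18, Mrpl19 -0.055 to 0.23, Mrpl20 -0.30 to 0.029, Mrpl28 -0.28 to 0.098, Mrpl42 -0.23 to 0.082, Mrps18a -0.042 to 0.21, Mrps30 -0.20 to 0.095, Mrps18c -0.13 to 0.033, Mrps24 -0.13 to 0.043, Mrps18b -0.21 to 0.28, Mrps36 -0.12 to 0.083, Mrpl12 -0.14 to 0.22, Mrps12 -0.12 to 0.14, Mrps25 -0.059 to 0.065, Mrps2 -0.052 to 0.17, Mrpl41 -0.25 to 0.25, Dap3 -0.14 to 0.071, Guf1 -0.0080 to 0.12, Tefm -0.0069 to 0.17, Ppargc1a -0.57 to 0.086, Yy1 -0.031 to 0.16. The causes were not tested. The number of arrays limits the precision.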
